A study of Homo sapiens with 12 samples.

Results

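The genes described here are the collagens, laminins and integrins that the gastric cancer cell line HGC-27 transcribed. They were chosen by symbol and level. Of 83 rows of the expression table whose symbol named a collagen chain (COL), a laminin chain (LAMA, LAMB or LAMC) or an integrin subunit (ITGA or ITGB, leaving out the proteins that bind ITGB1), 36 averaged 1 FPKM or more across the 12 libraries, and these 36 are the members. FPKM counts fragments per kilobase of a transcript and is divided by what was mapped in that library, so levels can be compared between genes of different length. The whole table held 20345 rows, of which 11225 reached the same mean. The members were 17 of 43 collagen rows, 7 of 12 laminin rows and 12 of 28 integrin rows. ITGB3BP, a centromere protein, and ITGBL1, a secreted protein with integrin-like repeats, matched the symbol pattern but are not integrin subunits. Just inside the limit lay COL14A1 at a mean of 1.38 FPKM, and just outside it lay ITGB8, ITGB2 and COL8A2 at 0.648, 0.637 and 0.623 FPKM.

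HGC-27 was established from a lymph node metastasis of an undifferentiated gastric carcinoma. RNA-seq was done on 4 groups of 3 libraries, namely WT cells left untreated, WT cells given GLUP, cells labelled TEAD4KO left untreated, and cells labelled TEAD4KO given GLUP. GLUP is the glue peptide that the study engineered against TEAD4, the DNA-binding partner of the Hippo pathway co-activators YAP and TAZ, and TEAD4KO names a knockout of the TEAD4 gene, made to ask whether GLUP acts through TEAD4. How the knockout cells were made, whether they are 1 clone, and a single duration of treatment are not given in the sources used here.

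Collagens are triple-helical proteins of the extracellular matrix. Fibrillar collagens build the fibrils of connective tissue, FACIT collagens sit on the surface of those fibrils, type VI collagen forms beaded filaments, and type IV collagen forms the network of basement membranes. Laminins are heterotrimers of an alpha, a beta and a gamma chain and organise the basement membrane beneath epithelia. Integrins are receptors of an alpha and a beta subunit through which cells hold on to these matrix proteins and pass signals to the cytoskeleton and to YAP and TAZ.

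The targeted transcript was not lower under the label. FPKM of a gene does not show whether the gene or its protein was disrupted, so this neither bears out nor refutes the knockout. TEAD4 lay between 22.9 and 25.8 FPKM in the 6 WT libraries and between 26.0 and 30.1 FPKM in the 6 libraries labelled TEAD4KO, so it was higher, not lower, in every library with that label (log2 fold change over both treatments 0.20 ± 0.04 SE, limma adjusted p = 0.00752). Every direction given below between genotypes rests on the label alone. The summed FPKM of a library ranged from 375361 to 423757, and since FPKM does not keep the sequencing depth, which is unknown here, counting intervals are not given. On the first principal component of all tested rows, 4 of the 6 libraries labelled TEAD4KO lay at 9.91 or higher, but TEAD4KO untreated replicate 1 (-0.962) and TEAD4KO GLUP replicate 16 (-5.26) lay close to the WT libraries (-16.2 to -3.71). Counts of called genes between genotypes are given with and without these 2 libraries. Because they were picked from these data for lying near WT, leaving them out favours more calls between genotypes. As for the cell type, epithelial markers were mostly low, with EPCAM and KRT18 at means of 0.0937 and 0.168 FPKM and KRT19 listed at 0 in 9 of 12 libraries, whereas KRT8 and CDH1 reached 5.78 and 2.75 FPKM. In all, 3 of the 8 listed epithelial markers had a mean of at least 1 FPKM, and the 8 summed to between 9.58 and 17.1 FPKM per library. All 8 listed markers of fibroblasts had a mean of at least 1 FPKM, with POSTN, ACTA2, DCN and LUM at 139, 89.2, 63.1 and 57.0 FPKM. Endothelial markers summed to at most 0.584 FPKM in any library and leukocyte markers to at most 3.97 FPKM.

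HGC-27 cells transcribed fibrillar collagens at high levels and type IV collagen hardly at all. Type III collagen (COL3A1) was the most abundant member at a mean of 326 FPKM, rank 134 of the 11225 rows, followed by the main chain of type I collagen (COL1A1) at 239 FPKM, rank 179. The second type I chain, COL1A2, stood at only 6.79 FPKM. The type V chains COL5A2 and COL5A1, which help to start fibrils, stood at 59.5 and 35.0 FPKM, the type XI chain COL11A1 at 35.3 FPKM and COL27A1 at 13.7 FPKM. In all, 7 of 11 fibrillar chains were members, and the absent ones included the cartilage collagen COL2A1 at 0.0335 FPKM.

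Among the FACIT collagens, 5 of 10 were members. COL16A1 (38.6 FPKM) and COL9A3 (33.4 FPKM) led, COL12A1 followed at 20.6 FPKM, and COL9A2 and COL14A1 were low at 1.90 and 1.38 FPKM. COL9A1, the partner of COL9A2 and COL9A3 in type IX collagen, was listed at 0. Type VI collagen was represented by COL6A1 (34.6 FPKM) and COL6A2 (16.4 FPKM), while its other usual chain, COL6A3, was at 0.204 FPKM. Of the 6 type IV chains 1 was a member, COL4A5 at 3.14 FPKM, whereas the main chains COL4A1 and COL4A2 were at 0.00301 and 0.124 FPKM. COL18A1, the basement membrane multiplexin, was at 2.35 FPKM, and COL7A1, which forms the anchoring fibrils under epithelia, at 1.53 FPKM. None of the 4 transmembrane and 3 short-chain collagens was a member.

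Laminin transcripts were dominated by a beta and a gamma chain. LAMB1 stood at 74.3 FPKM and LAMC1 at 51.6 FPKM, and LAMB2 at 12.2 FPKM. The alpha chains were lower, in the order LAMA5 (14 FPKM), LAMA2 (8.22 FPKM), LAMA1 (2.43 FPKM) and LAMA3 (1.81 FPKM), and LAMA4 was at 0.108 FPKM. LAMB3, which joins LAMA3 in the laminin of the skin and of other epithelia, was at 0.190 FPKM. LAMB1 and LAMB4 (0.0307 FPKM) are neighbours on chromosome 7 (20334 bases apart on GRCh37), so a member lay beside a gene that was not transcribed to this limit.

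Subunits of the fibronectin and laminin receptors were members, and alpha subunits of the collagen receptors were not. ITGB1, the common beta subunit, stood at 111 FPKM, and ITGA5 and ITGAV, the alpha subunits of fibronectin and vitronectin receptors, at 28.4 and 27.0 FPKM. ITGA4, whose pairs bind fibronectin and VCAM1, was at 17.6 FPKM. All 3 laminin-binding alpha subunits were members, namely ITGA3 (5.92 FPKM), ITGA6 (4.65 FPKM) and ITGA7 (1.49 FPKM), but 0 of the 4 collagen-binding alpha subunits were, of which ITGA1 was highest at 0.594 FPKM. ITGB4, the partner of ITGA6 in hemidesmosomes, was at 0.226 FPKM. Of the other members, ITGB5 was at 10.5 FPKM, ITGAE, which lymphocytes use to bind E-cadherin, at 9.89 FPKM, and ITGB7, its partner, at 2.02 FPKM, and ITGB3BP and ITGBL1 were at 26.5 and 1.72 FPKM.

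**Figure D1:**
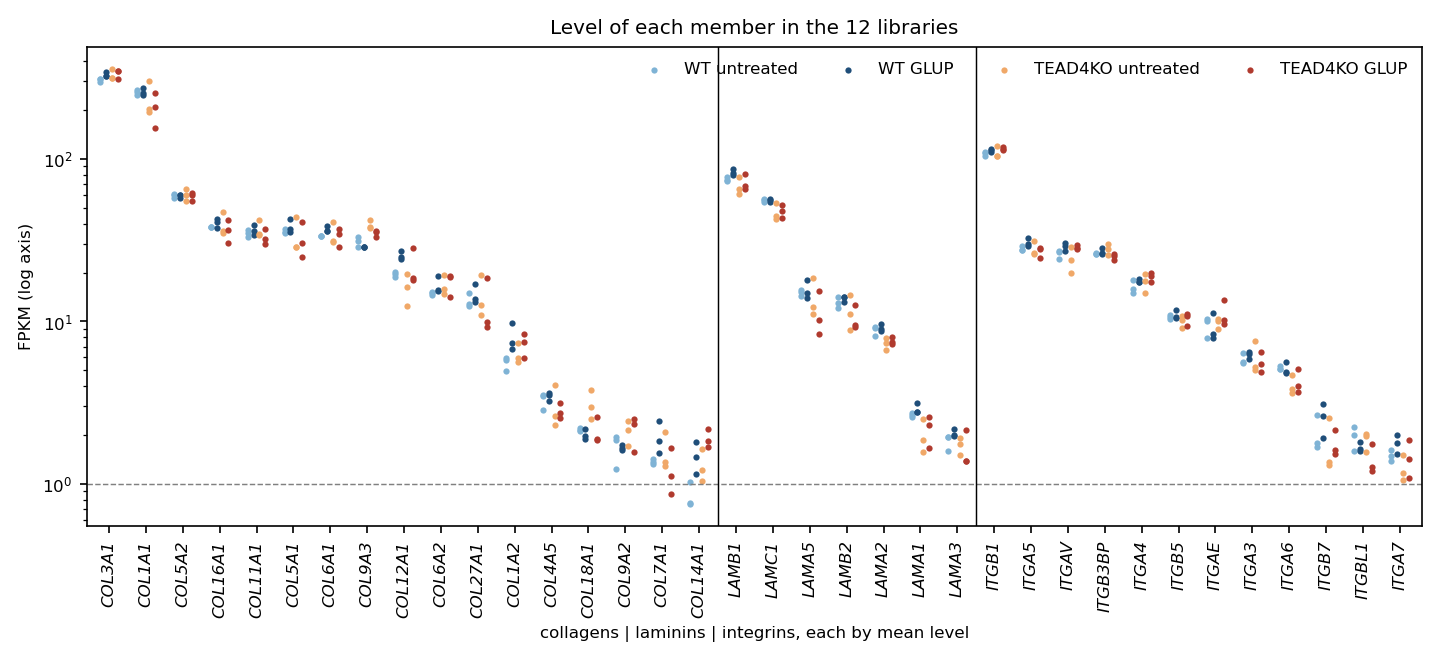
FPKM of the 36 members in each of the 12 libraries on a log axis, with collagens, laminins and integrins in panels ordered by mean level. Points are single libraries coloured by group, and the dashed line marks 1 FPKM. Levels span from 326 FPKM for COL3A1 to 1.38 FPKM for COL14A1, and the groups of most members overlap.

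The members moved together between libraries of the same group. WT GLUP replicate 16, TEAD4KO untreated replicate 1 and TEAD4KO GLUP replicate 16 each held the highest value of their group for 29 of 36 members (80.6%), where 42.1%, 45.0% and 42.8% of all tested rows were highest in these libraries. TEAD4KO untreated replicate 2 was the highest of its group for 0 members, against 21.4% of all rows. In TEAD4KO GLUP replicate 15 the median member lay at -0.20 on the log2 scale relative to its own mean, where the median of all rows was -0.014. COL1A1 shows the spread, at 304, 202 and 195 FPKM in the untreated libraries labelled TEAD4KO and 208, 155 and 254 FPKM after the peptide, while the 6 WT libraries lay between 246 and 272 FPKM. The labels name no batch. With each library corrected for GC content and transcript length, the median deviation of the members was smaller in the libraries just named. It went from 0.165 to 0.083 in WT GLUP replicate 16 and from 0.138 to 0.041 in TEAD4KO untreated replicate 1. In TEAD4KO GLUP replicate 16 it went from 0.108 to 0.018. For TEAD4KO untreated replicate 2 it moved from -0.139 to -0.060, and for TEAD4KO GLUP replicate 15 from -0.197 to -0.088. What else these libraries share was not tested. Because the samples are bulk RNA, a smaller number of matrix-producing cells and less RNA per cell cannot be told apart.

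**Figure D2:**
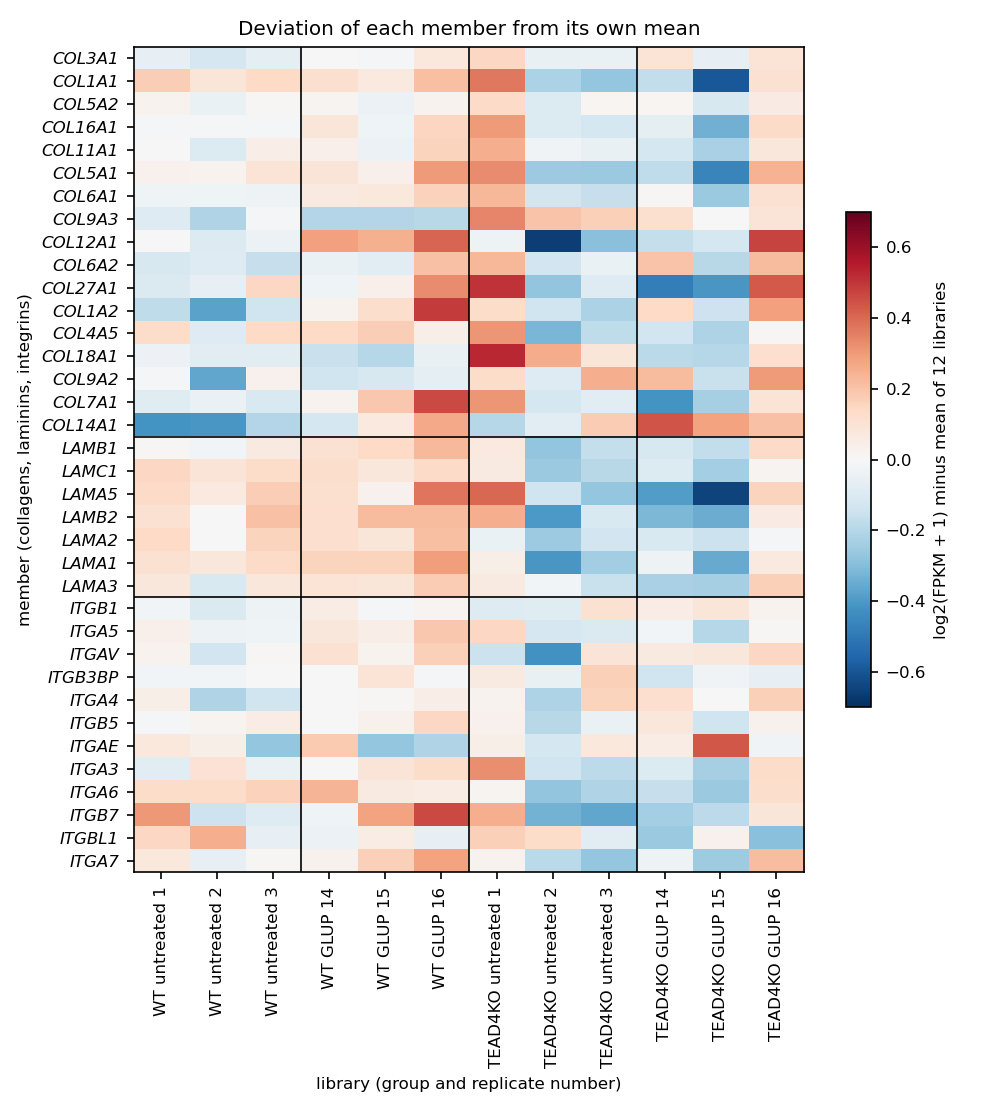
Deviation of log2(FPKM + 1) of each member (rows) from its own mean over the 12 libraries (columns, in groups of 3), with red above and blue below the mean. Columns rather than groups carry most of the colour, as in TEAD4KO untreated replicate 1, where 29 of 36 members were the highest of their group.

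Whether GLUP changed these genes in WT cells was the first comparison. None of the 36 members passed an adjusted p under 0.05, the call used throughout, and 0.00891% of all tested rows did. At an unadjusted p under 0.05 there were 3 members, COL1A2, COL14A1 and COL12A1, all higher (8.33%, beside 3.43% of all rows). The differences leaned one way, with 29 members above 0 and 7 below, where 6047 of 11225 rows were above 0 and 5178 below. The median log2 fold change was 0.083, beside 0.0088 over all rows. Across the 11077 rows with known length the difference went up with transcript length (Spearman rho 0.237). Correcting each library for GC content and transcript length gave a median of 0.055 over the members, beside -0.0089 over all rows. In 13 members every GLUP library lay above every untreated library and in 0 members below, where 10.2% and 7.16% of all rows did so.

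COL1A2 measured 5.80, 4.93 and 5.99 FPKM without GLUP, and with it 6.81, 7.37 and 9.80 FPKM. The groups did not overlap, and the difference was 0.44 ± 0.14 on the log2 scale (SE, 3 libraries a group, limma adjusted p = 0.999). COL14A1, a FACIT collagen of tendon and skin, measured 0.753, 0.764 and 1.03 FPKM without the peptide, and 1.15, 1.45 and 1.81 FPKM after it, again without overlap (0.41 ± 0.13 SE). For COL12A1, another FACIT collagen, the values without GLUP were 20.1, 18.8 and 19.6 FPKM, and those after it were 24.8, 24.1 and 27.1 FPKM (0.36 ± 0.16 SE). All 3 genes had their highest value in WT GLUP replicate 16. Among the abundant members, COL3A1 went from 307 ± 6.75 to 331 ± 10.9 FPKM (SD, n = 3), LAMB1 from 74.9 ± 2.14 to 82.6 ± 3.73 FPKM and ITGB1 from 107 ± 3.13 to 113 ± 2.70 FPKM, each without overlap, while COL1A1 stood at 258 FPKM in both groups. The values furthest below 0 were those of ITGBL1 (-0.13 ± 0.12) and COL9A3 (-0.099 ± 0.067). The scale of log2(FPKM + 1) makes fold changes of low genes such as COL14A1 too small, and an exact permutation test of 3 against 3 libraries could not give a p below 0.1.

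In the libraries labelled TEAD4KO, GLUP again called 0 of 36 members, where 0.0445% of all rows passed. At an unadjusted p under 0.05 there were 5 members (13.9%, beside 6.38% of all rows), with 18 above and 18 below 0 and a median of -0.0039, beside -0.017 over all rows. Groups did not overlap for 1 member that was higher (COL14A1) and 1 that was lower (COL9A3), and for 2.85% and 3.98% of all rows. COL14A1 measured 1.04, 1.22 and 1.64 FPKM before, and 2.17, 1.84 and 1.69 FPKM after the peptide (0.34 ± 0.13 SE, limma adjusted p = 0.702). COL12A1 was at 19.7, 12.4 and 16.3 FPKM and at 17.9, 18.5 and 28.4 FPKM (0.39 ± 0.16), with overlap. The largest differences in the other direction belonged to COL18A1, with 3.78, 2.96 and 2.52 FPKM before, then 1.90, 1.88 and 2.59 FPKM (-0.38 ± 0.12, adjusted p = 0.571), and to LAMA5, with 18.4, 12.3 and 11.2 FPKM before, then 10.2, 8.38 and 15.4 FPKM (-0.29 ± 0.19). Leaving out TEAD4KO GLUP replicate 16 gave a median of -0.066 over the members, and leaving out TEAD4KO untreated replicate 1 gave 0.097. Without TEAD4KO GLUP replicate 15 the median was 0.067, and without TEAD4KO untreated replicate 2 or 3 it was -0.064 or -0.053. Its sign thus rested on which libraries were kept.

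The difference between these GLUP effects, tested as the interaction of genotype and treatment, passed for 0 of 36 members and for 0.00891% of all rows. It was below 0 for 27 members and for 6370 of 11225 rows, with a median of -0.10 over the members (-0.019 over all rows). All 7 fibrillar collagens were below 0, from -0.32 for COL27A1 to -0.038 for COL5A2. Across the members the interaction went down with GC content (Spearman rho -0.488, beside -0.0970 over 11077 rows). Correcting each library for GC content and transcript length gave a median of -0.061 over the members. COL7A1 was the 1 member with an unadjusted p under 0.05 (-0.53 ± 0.22 SE), which 2.53% of all rows reached. In WT it measured 1.35, 1.41 and 1.32 FPKM before GLUP, then 1.54, 1.84 and 2.44 FPKM. Under the TEAD4KO label it measured 2.09, 1.29 and 1.37 FPKM before, then 0.865, 1.13 and 1.67 FPKM. LAMA5 was at -0.34 ± 0.27, and above 0 the largest values were those of ITGAE (0.20 ± 0.20) and ITGAV (0.12 ± 0.14). The median interaction became 0.0080 when TEAD4KO untreated replicate 1 was left out and -0.17 when TEAD4KO GLUP replicate 16 was.

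Averaged over both genotypes, GLUP called 0 of 36 members and 0.258% of all rows, and 7 members (19.4%) had an unadjusted p under 0.05, beside 7.14% of all rows. The 3 highest of these again were COL14A1 (0.38 ± 0.09 SE, limma adjusted p = 0.203), COL12A1 (0.38 ± 0.12, adjusted p = 0.362) and COL1A2 (0.31 ± 0.10, adjusted p = 0.444), and ITGAV was at 0.20 ± 0.07. The lowest were COL18A1 (-0.23 ± 0.09) and ITGBL1 (-0.19 ± 0.09). This average contains the WT and TEAD4KO libraries already described and is no separate evidence. Beside it, 2 of the 8 fibroblast markers rose with GLUP over both genotypes, PDGFRA by 0.30 (adjusted p = 0.0349) and ACTA2 by 0.29 (adjusted p = 0.0463). The summed level of the 8 markers was 345 to 356 FPKM in untreated WT libraries and 378 to 399 FPKM with GLUP, and 357 to 414 FPKM and 369 to 440 FPKM in libraries labelled TEAD4KO, and its part in the collagen values was not tested.

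**Figure D3:**
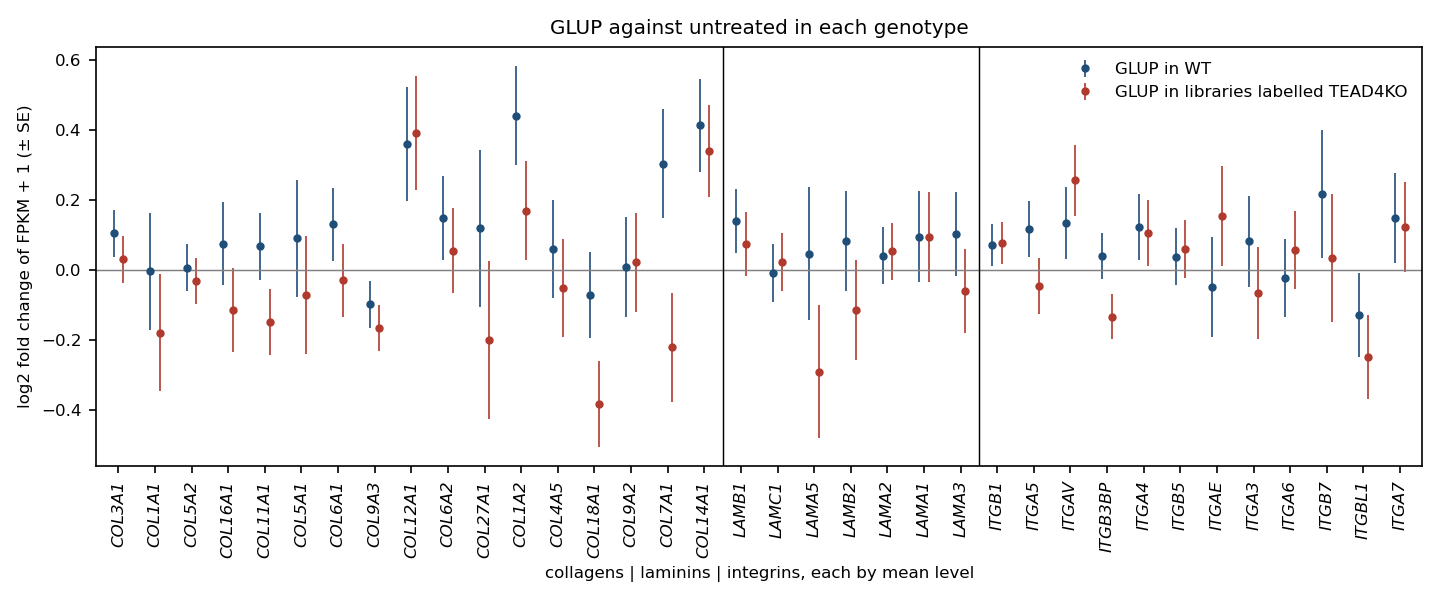
Log2 fold change of FPKM + 1 (± SE) with GLUP for each member, in WT (blue) and in libraries labelled TEAD4KO (red), 3 libraries per group. COL14A1 and COL12A1 lie at 0.34 to 0.41 in both genotypes, COL18A1 and LAMA5 lie furthest below 0 in libraries labelled TEAD4KO, and none of the 36 members passed in either genotype.

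The genes that make, cut and bind the matrix showed no GLUP call either. Of 25 tested collagen maturation genes (prolyl and lysyl hydroxylases, lysyl oxidases and chaperones), 18 other matrix glycoproteins, 19 matrix proteases and inhibitors, 35 components of integrin adhesion complexes and 18 other matrix receptors, 0 passed with GLUP in WT, in libraries labelled TEAD4KO or averaged over both. The medians over these lists ran from -0.0047 to 0.062 in WT and from -0.033 to 0.063 in libraries labelled TEAD4KO.

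The genotypes were compared first without treatment. A single member passed. COL9A3, a chain of the cartilage FACIT collagen type IX, measured 31.1, 28.6 and 32.9 FPKM in WT, against 42.3, 38.2 and 37.4 FPKM in libraries labelled TEAD4KO. Every library with that label lay above every WT library, and the difference came to 26.5% on the FPKM + 1 scale (log2 fold change 0.34 ± 0.07 SE, limma adjusted p = 0.0128). Thus 1 of 36 members was called higher and 0 lower, where 5.42% of all rows were called, 4.92% higher and 0.499% lower. Under median-ratio scaling and under quantile normalization the split was 1 higher and 1 lower. Of all rows, 2.85% were higher and 1.18% lower under the first, and 3.18% and 2.19% under the second. An unadjusted p under 0.05 was reached by 7 members (19.4%) and by 21.7% of all rows. The median member was at -0.0021, beside 0.023 over all rows. Groups did not overlap for 4 members that were higher and 4 that were lower, against 18.3% and 7.47% of all rows.

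By family and before any threshold, all 7 laminins were below 0, with a median of -0.19, and 3 of them did not overlap (LAMC1, LAMA2 and LAMA1). Of the 17 collagens 13 were above 0 (median 0.077), COL18A1 being the highest at 0.36 ± 0.12 with 2.22, 2.13 and 2.14 FPKM in WT and 3.78, 2.96 and 2.52 FPKM under the label. The integrin rows, ITGB3BP and ITGBL1 included, had 5 above and 7 below 0, and ITGA6 was lowest at -0.30 ± 0.11. Without TEAD4KO untreated replicate 1 alone, 1 member was called higher and 4 lower (11.1% lower, beside 2.98% of all rows), and without both libraries that stand apart 1 was higher and 10 lower (27.8% of the members, where 7.32% of all rows were lower).

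With GLUP, COL9A3 was again the 1 member called, at 28.7, 28.6 and 28.9 FPKM in WT and 35.9, 33.3 and 35.4 FPKM in libraries labelled TEAD4KO (0.27 ± 0.07 SE, limma adjusted p = 0.0329). Of all rows 5.84% were called, 4.91% higher and 0.935% lower. The members were otherwise mostly below 0, namely 27 of 36, where 5707 of 11225 rows were. Their median was -0.16 (-0.0039 over all rows), and 9 (25.0%, beside 23.9% of all rows) had an unadjusted p under 0.05, 6 of them laminins. Groups did not overlap for 1 higher and 7 lower members, against 16.7% and 12.9% of all rows. The lowest values were those of LAMA5, the alpha chain of most adult basement membranes (-0.46 ± 0.19), and of COL7A1 (-0.41 ± 0.16). LAMA5 was at 14.9, 14 and 18.0 FPKM in WT and at 10.2, 8.38 and 15.4 FPKM under the label, where replicate 16 alone reached the WT range. ITGAE was highest after COL9A3 at 0.25 ± 0.14.

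With the replicate number as a block, the GLUP comparison called COL9A3 higher and LAMA5 lower (adjusted p = 0.0466). Each is 2.78% of the members, where 6.76% of all rows were called higher and 2.72% lower. Deviations of same-numbered GLUP libraries correlated, but so did those of some differently numbered ones, so pairing by number was not established. Once transcript length and GC content were corrected for within each library, COL9A3 dropped to 0.089 with GLUP (adjusted p = 0.348; 0.329 with the block) and to 0.095 without treatment (0.393) and was called in neither, while LAMA5 was called lower with GLUP (-0.45, adjusted p = 0.0484). After this correction 2.58% of all rows were called higher and 1.21% lower with GLUP. Without TEAD4KO GLUP replicate 16 the uncorrected GLUP comparison called 1 member higher and 9 lower (25.0% lower, beside 7.34% of all rows), and without both libraries that stand apart 1 higher and 18 lower, or 50.0% of the members where 13.3% of all rows were lower.

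Averaging the genotype comparison over both treatments used all 12 libraries and called 5 members. COL9A3 was higher, and LAMC1, LAMA2, LAMA1 and ITGA6 were lower. Thus 3 of 7 laminins, 1 of 12 integrin rows (ITGB3BP and ITGBL1 included) and 1 of 17 collagens passed. Over all rows 20.0% were called, 14.4% higher and 5.67% lower, so the 1 member called higher was a smaller share than among all rows and the 4 called lower a larger one. An unadjusted p under 0.05 was reached by 13 members (36.1%) and by 34.8% of all rows, and the median member was at -0.087, beside 0.0080 over all rows. The 6 libraries under the label did not overlap with the 6 WT libraries for 1 higher member (COL9A3) and 3 lower ones (LAMC1, LAMA2 and LAMA1), against 7.06% and 2.33% of all rows.

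COL9A3 (chromosome 20, 61447596 to 61472511 on GRCh37, plus strand) had its lowest library under the label at 33.3 FPKM and its highest WT library at 32.9 FPKM. The averaged log2 fold change was 0.30 ± 0.05 (SE, 6 against 6 libraries; limma adjusted p = 0.000827). Its partner COL9A2 averaged 1.67 ± 0.386 FPKM in WT and 2.09 ± 0.367 FPKM under the label without treatment (SD, 3 libraries each), and was not called (0.22 ± 0.10).

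LAMC1 (chromosome 1, 182992555 to 183114727, plus strand), the gamma chain shared by most laminins, measured 56.7, 54.7 and 56.2 FPKM in WT without GLUP, then 55.9, 54.2 and 56.4 FPKM after it. Under the TEAD4KO label it measured 53.7, 42.8 and 44.8 FPKM before, then 47.9, 43.4 and 52.1 FPKM. TEAD4KO untreated replicate 1 and TEAD4KO GLUP replicate 16 came nearest to WT without reaching it, and LAMC1 fell by 0.23 ± 0.06 on the log2 scale (SE, limma adjusted p = 0.0146), or by 14.9%.

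LAMA2 (chromosome 6, 129204283 to 129837711, plus strand), the alpha chain of muscle and nerve basement membranes, measured 9.12, 8.15 and 9.22 FPKM in WT without GLUP, then 8.97, 8.73 and 9.62 FPKM after it, against 7.88, 6.68 and 7.36 FPKM and 7.51, 7.26 and 8.08 FPKM under the label. Groups did not overlap, and LAMA2 fell by 0.24 ± 0.06 (adjusted p = 0.0123). LAMA1 (chromosome 18, 6941741 to 7117796, minus strand), the alpha chain of early embryonic basement membranes, was at 2.59 to 3.16 FPKM in WT and at 1.56 to 2.57 FPKM under the label, and fell by 0.31 ± 0.09 (adjusted p = 0.0305).

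ITGA6 (chromosome 2, 173292082 to 173371187, plus strand), the alpha subunit of laminin receptors with ITGB1 or ITGB4, measured 5.12, 5.13 and 5.28 FPKM in WT without GLUP, then 5.62, 4.86 and 4.81 FPKM after it. Under the label it measured 4.68, 3.63 and 3.85 FPKM and at 4.02, 3.68 and 5.11 FPKM. TEAD4KO GLUP replicate 16 lay inside the WT range, so the groups overlapped, and ITGA6 fell by 0.26 ± 0.08 (adjusted p = 0.0360). The other laminin chains were below 0 without passing, LAMB2 at -0.29 ± 0.10 (adjusted p = 0.0624), LAMA5 at -0.30 ± 0.13 (0.136), LAMB1 at -0.18 ± 0.06 (0.0696) and LAMA3 at -0.14 ± 0.09 (0.277). With the replicate block LAMB2 (adjusted p = 0.0260), LAMB1 (0.0329) and LAMA5 (0.0364) passed as lower, and so did COL1A1 (0.0469), COL12A1 (0.0364) and ITGB7 (0.0305). That block also covered the untreated libraries, whose numbers did not pair, so these added calls rest on a pairing that was not shown. ITGB1 was at 0.031 ± 0.042, ITGA3 at -0.064 ± 0.093, COL3A1 at 0.060 ± 0.047 and COL1A1 at -0.26 ± 0.12, none of them called without the block, and the highest value after COL9A3 was that of COL14A1 (0.27 ± 0.09, adjusted p = 0.0542).

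**Figure D4:**
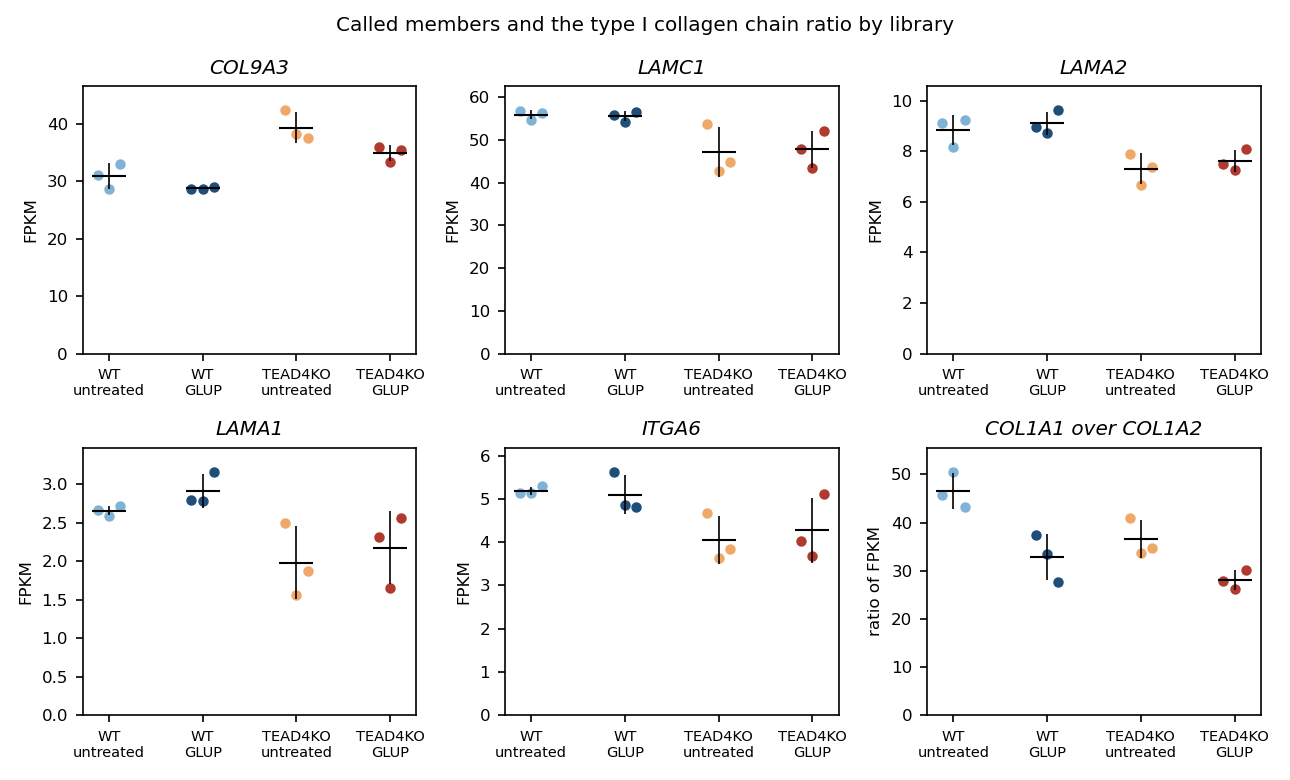
FPKM of the 5 members called between genotypes over both treatments, and the ratio of the type I collagen chains COL1A1 and COL1A2, in each library. Points are libraries, horizontal bars are group means and vertical lines are SD (n = 3). COL9A3 lies above and LAMC1, LAMA2 and LAMA1 lie below WT in all 6 libraries labelled TEAD4KO, and ITGA6 overlaps with WT in 1 library.

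These differences were read against transcript length and GC content, which moved with genotype over the whole table. Across the 11077 tested rows with known length, the genotype difference over both treatments had a Spearman rho of -0.533 with transcript length, and across the 36 members -0.489, so longer transcripts were lower under the label in both. Rows share libraries, and these values are descriptions. The members' median transcript was 5671 bases, against 3344 for all tested rows, and their median GC content was 54.6%, against 48.2%. COL9A3, the called member that was higher, has a short transcript of 2497 bases, and the 4 called lower have transcripts of 5816 to 9696 bases.

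When each library was corrected for its own trend with GC content and length, 9 members were called, 4 higher and 5 lower, where 7.96% and 5.99% of all rows were called higher and lower. LAMC1 was lower in both fits (-0.11 ± 0.03 SE after correction, limma adjusted p = 0.0414). LAMA5 (-0.32, adjusted p = 0.0222), LAMB2 (-0.26, adjusted p = 0.0187), COL1A1 (-0.25, adjusted p = 0.0427) and COL6A1 (-0.13, adjusted p = 0.0392) passed as lower after correction, with LAMA5, LAMB2 and COL1A1 at about the same difference as before it, and COL14A1 (0.39, adjusted p = 0.0206), ITGA4 (0.16, adjusted p = 0.0426), COL3A1 (0.14, adjusted p = 0.0120) and COL5A2 (0.11, adjusted p = 0.0296) passed as higher. COL9A3 was at 0.092 (adjusted p = 0.126), LAMA2 at -0.098 (0.104), LAMA1 at -0.17 (0.0705) and ITGA6 at -0.18 (0.0932), so these 4 calls were lost. The part of length and GC content in the uncorrected differences was not tested beyond this correction.

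Leaving out both libraries that stand apart called 22 of 36 members, 2 higher (COL9A3 and COL14A1) and 20 lower, or 55.6% of the members lower where 19.6% of all rows were. Those libraries were picked from these data for lying near WT, which favours more calls, so these counts are no separate support. All 7 laminins were among the 20, from -0.51 for LAMA5 to -0.23 for LAMA3. Without TEAD4KO untreated replicate 1 alone 2 members were higher and 12 lower (33.3% lower, beside 11.5% of all rows), and without TEAD4KO GLUP replicate 16 alone 2 were higher and 10 lower (27.8%, beside 12% of all rows). With the replicate number as a block 1 member was called higher and 10 lower, where 15.8% and 8.51% of all rows were. That block paired the untreated libraries by number too, which their deviations did not bear out. In fits that left out 1 library each, COL9A3, LAMC1 and LAMA2 were called in 12 of 12, LAMA1 in 3 (without TEAD4KO untreated replicate 1, TEAD4KO GLUP replicate 14 or TEAD4KO GLUP replicate 16) and ITGA6 in 2 (without TEAD4KO untreated replicate 1 or TEAD4KO GLUP replicate 16), and in the fits that lost the call the adjusted p was 0.0511 to 0.0790 for LAMA1 and 0.0551 to 0.0913 for ITGA6. Nothing in the labels says that the 3 libraries of a group came from separate cultures, so the p-values measure the spread between these libraries, which may be technical.

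**Figure D5:**
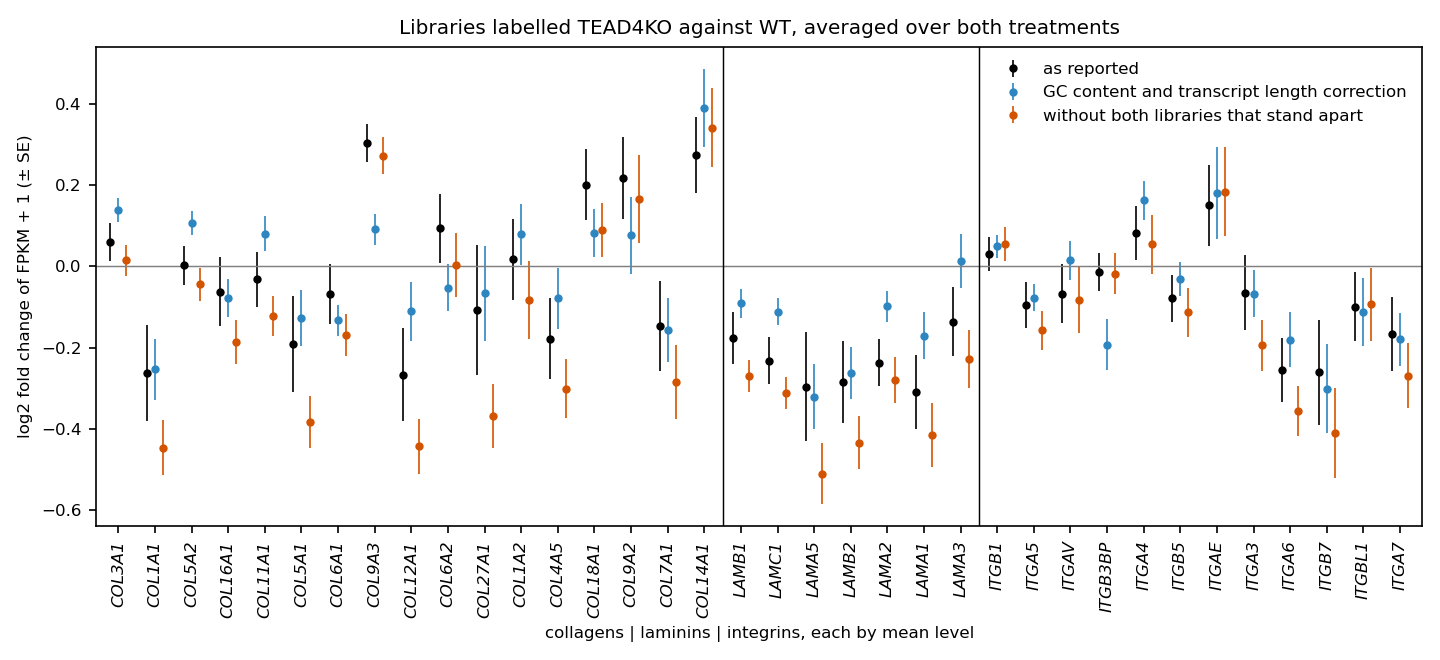
Log2 fold change of FPKM + 1 (± SE) between libraries labelled TEAD4KO and WT, averaged over both treatments, for each member as reported (black), after correction for GC content and transcript length (blue), and without both libraries that stand apart (orange). The 7 laminins lie below 0 in black and orange, LAMA3 moves above 0 in blue, and COL9A3 drops from 0.30 to 0.092 after correction.

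The promoters of the members called lower were read from RefSeq for the letters that TEAD factors bind. Of the 36 members, 26 had a promoter entry. COL1A1, COL1A2, COL3A1, COL5A2, COL6A1, COL9A3, COL14A1, ITGA3, ITGA7 and LAMA1 had none. The 250 bases before the start site of LAMC1, LAMA2 and ITGA6 are shown because these genes were lower together under a label that names a TEAD factor (GRCh38.p14, plus strand, 5′ to 3′; LAMC1 at chr1:183023170-183023419, LAMA2 at chr6:128882888-128883137 and ITGA6 at chr2:172427086-172427335). Capitals mark the M-CAT core CATTCC, which is the site of TEAD factors, or its reverse complement GGAATG.
LAMC1: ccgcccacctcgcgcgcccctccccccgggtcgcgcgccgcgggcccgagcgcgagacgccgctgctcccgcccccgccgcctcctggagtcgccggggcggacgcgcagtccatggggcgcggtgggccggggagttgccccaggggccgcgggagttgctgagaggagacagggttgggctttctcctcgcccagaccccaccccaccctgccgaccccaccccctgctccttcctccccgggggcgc
LAMA2: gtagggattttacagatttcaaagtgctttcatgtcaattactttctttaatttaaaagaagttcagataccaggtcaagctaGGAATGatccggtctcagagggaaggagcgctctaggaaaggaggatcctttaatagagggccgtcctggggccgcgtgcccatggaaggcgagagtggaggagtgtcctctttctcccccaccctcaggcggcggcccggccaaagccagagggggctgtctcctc
ITGA6: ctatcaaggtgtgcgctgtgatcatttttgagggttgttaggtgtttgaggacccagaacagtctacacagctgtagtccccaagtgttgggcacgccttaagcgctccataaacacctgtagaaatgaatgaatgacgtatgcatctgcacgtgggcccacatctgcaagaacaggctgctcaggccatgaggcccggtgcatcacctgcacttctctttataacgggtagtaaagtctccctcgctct
LAMA2 held 1 match, beginning 167 bases before the start site, and the other 2 windows held none. Over the 26 member promoters, 4 held the core on either strand (15.4%, in COL12A1, ITGA5, ITGB1 and LAMA2), where 11.9% of 35116 promoters of the same length did. The AP-1 core TGACTCA was found in 1 member promoter, that of LAMA3 (3.85%), and in 4.20% of all. Each member counted with 1 entry, whereas the 35116 were all entries, whether or not the gene was tested. The median GC content was 66.6% in member promoters and 58.0% in all, and the shares were not matched for it. A match is a stretch of letters and not a measured site, and no match speaks only of these letters in this window.

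Of 115 tested genes that work with the members, 21 were higher under the label (18.3%) and 10 lower (8.70%) over both treatments, where 14.4% and 5.67% of all rows were. Without both libraries that stand apart, an alternative added after the data were seen, the counts were 23 higher and 31 lower (20.0% and 27.0%, against 21.8% and 19.6% of all rows), and 9 of the 18 matrix glycoproteins were lower. Averaged over both treatments, 3 of 25 collagen maturation genes were higher and 0 lower, namely LOXL1, a lysyl oxidase (0.34 ± 0.07 SE, limma adjusted p = 0.00666), SERPINH1, the collagen chaperone HSP47 (0.26 ± 0.05, adjusted p = 0.00270), and PPIB, the prolyl isomerase of collagen folding (0.21 ± 0.06, adjusted p = 0.0170). Of 18 other matrix glycoproteins 1 was higher (EMILIN1, 0.18) and 3 were lower, fibronectin FN1 (-0.42 ± 0.13), tenascin TNC (-0.42 ± 0.09) and the microfibril protein FBN2 (-0.33 ± 0.11). FN1 is the ligand of the ITGA5 and ITGB1 pair, of which neither subunit was called. Of 19 proteases and inhibitors 5 were higher and 2 lower, among them ADAM15 (0.47 ± 0.05) and TIMP1 (0.31 ± 0.06), which were higher.

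Partners of the integrins were also called. Of 35 adhesion complex genes 7 were higher and 3 lower. BCAR1, a docking protein of focal adhesions, was higher at 0.32 ± 0.06, and SHARPIN, an inhibitor of integrin activation, at 0.30 ± 0.07. The tetraspanins CD151 and CD9, which sit beside laminin-binding integrins in the membrane, were higher at 0.28 ± 0.04 and 0.29 ± 0.05. Of 18 other matrix receptors 5 were higher and 2 lower, among them LRP1, an endocytic receptor (-0.50 ± 0.16), and the syndecan SDC4 and the glypican GPC1, which were higher at 0.27 ± 0.06 and 0.28 ± 0.06. In untreated cells the 5 lists held 9 genes called higher and 1 lower (7.83% and 0.870%, against 4.92% and 0.499% of all rows), and 15 and 18 without both libraries. With GLUP they held 5 higher and 1 lower (4.35% and 0.870%, against 4.91% and 0.935% of all rows), and 15 and 19 without both libraries, the 1 lower gene being TNC (-0.54 ± 0.13, adjusted p = 0.0302). Of the 8 fibroblast markers 5 were above and 3 below 0 over both treatments (median 0.055), and 1 was called, ACTA2 (0.30, adjusted p = 0.00196). Of the 3 tested epithelial markers 2 were above and 1 below 0 (median 0.024), and 1 was called, KRT8 (0.31, adjusted p = 0.0451). Their part in the members' values was not tested.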

How the data were processed

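RNA-seq of 12 HGC-27 libraries was analysed from the 1 table that the authors deposited, with 1 row per Ensembl gene and 1 FPKM column per library. The submitters' processing notes name HISAT2, Cufflinks, RSEM and the build hg19, and their versions, settings and annotation are not given in the sources used here. FPKM leaves differences in GC content or fragment length between libraries in place. Symbols came from a reference table for 96.5% of rows, and length, GC content and positions from GENCODE release 44 lifted to GRCh37 (98.7% of tested rows, 36 of 36 members).

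Log2(FPKM + 1) of the 11225 rows that averaged 1 FPKM or more was fitted with limma 3.58.1 in R 4.3.3 (lmFit, eBayes with trend, 1 model of 4 groups, no covariate). P-values were two-sided and adjusted by Benjamini-Hochberg over all rows within each of 7 comparisons. A call was an adjusted p under 0.05, without the fold limit of 2 that the study used. The members and lists were chosen with earlier results of these data known. Named genes were all called members, the 5 members of highest level per family, the 2 largest rises and falls per comparison, TEAD4, ITGB3BP, ITGBL1, and up to 3 called genes per related list and comparison. Genes just outside the limit, absent partner chains, and CD151, CD9, SDC4, GPC1, EMILIN1, PPIB and the marker genes were named after their values were seen. GC content and length were removed per library with splines of 5 degrees of freedom. Replicate numbers come from the titles. Deviations of same-numbered GLUP libraries correlated at 0.106, 0.152 and 0.336 (all over 0.1, treated as paired) and those of untreated libraries at -0.0569, 0.203 and -0.0149 (not paired). Differently numbered GLUP libraries also passed 0.1, WT 14 with TEAD4KO 15 at 0.134 and WT 15 with TEAD4KO 14 at 0.116. Those joining replicate 16 with 14 or 15 lay from -0.245 to -0.185. This set replicate 16 apart and did not establish pairing by number. The block was fitted by number in all 12 libraries, untreated ones included. Some genes that the rule names are not reported here. The scripts were tested on simulated data with known changes.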

Additional observations from a re-analysis of the deposited data

How the results depend on the processing

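Counts of called members with GLUP (in WT, in libraries labelled TEAD4KO, averaged, and as the interaction) were 0 in every alternative, and leaving out each library kept them at 0. The genotype counts moved. In untreated cells the count of 1 became 0 with a fold limit of 2, 2 (1 higher, 1 lower) with median-ratio scaling, quantile normalization or array weights, 0 with the GC content and length correction with or without the replicate block, and 11 without both libraries that stand apart. It ranged from 0 (without WT untreated replicate 2, where COL9A3 had an adjusted p of 0.0590) to 5 (without TEAD4KO untreated replicate 1) over single libraries left out. With GLUP the count of 1 became 0 with the fold limit, quantile normalization or no trend, 11 with array weights, 2 with the replicate block alone or with the correction, and 19 without both libraries, and ranged from 0 to 10 over single libraries. The shares of all rows higher and lower were 4.54% and 2.66% with quantile normalization, and 3.87% and 0.748% without the trend. They were 12.9% and 9.25% with array weights, and 14.5% and 13.3% without both libraries. The block gave 6.76% and 2.72%, and 2.71% and 1.40% with the correction. Without TEAD4KO GLUP replicate 16 alone the shares were 10.0% and 7.34%. With the GC content and length correction the count stayed at 1, but the called member was LAMA5 in place of COL9A3. COL9A3 lost that call without WT untreated replicate 1, WT GLUP replicate 14, 15 or 16, or TEAD4KO GLUP replicate 14 or 15 (adjusted p from 0.0534 to 0.131). Averaged over both treatments, the count of 5 became 0 with the fold limit, 3 without a filter or with a mean of at least 5 FPKM (25 members tested), 9 with quantile normalization (3 higher, 6 lower) or the correction (4 higher, 5 lower), 13 with array weights, 11 with the replicate block with or without the correction, and 22 without both libraries, and ranged from 3 (among others without WT untreated replicate 1) to 14 (without TEAD4KO untreated replicate 1). Apart from the fold limit, LAMC1 was called in each of 23 alternatives of the averaged comparison. The median log2 fold change of the members moved by less than 0.114 in every alternative. That value is the pooled SD of single libraries' medians within groups and not the error of a comparison of group means, so it does not show that the medians were stable. Without both libraries the averaged genotype median was -0.18. Over single libraries left out the median ranged from -0.066 to 0.097 for GLUP in libraries labelled TEAD4KO, 0.056 to 0.12 in WT, -0.025 to 0.074 averaged, -0.17 to 0.0080 for the interaction, and -0.11 to 0.045, -0.23 to -0.090 and -0.13 to -0.044 for the genotype comparison untreated, with GLUP and averaged. The cause of these moves was not tested. The unknown depth limits the low members most, such as COL14A1 and ITGA7.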

Other observations

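Ratios of chains or subunits that assemble together, and of COL3A1 to COL1A1, were compared within each library, after the values were seen and without a test. COL1A1 and COL1A2, which build type I collagen together, had a ratio of FPKM of 45.8, 50.6 and 43.3 in untreated WT libraries and of 37.4, 33.4 and 27.8 with GLUP. Under the TEAD4KO label the ratio was 41.0, 33.7 and 34.8 untreated and 27.9, 26.1 and 30.2 with GLUP. Every GLUP library thus lay below every untreated library of its genotype. The transcripts of COL1A1 and COL1A2 have a GC content of 61.5% and 54.5%. Across the 11077 rows, the GLUP difference averaged over both genotypes went down with GC content (Spearman rho -0.225). The part of GC content in this ratio was not tested. COL3A1 and COL1A1 belong to different collagen types. Their ratio ran from 1.18 to 1.20 in untreated WT libraries, from 1.26 to 1.31 in WT with GLUP, from 1.18 to 1.62 in untreated libraries labelled TEAD4KO and from 1.37 to 2.01 with GLUP.

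The partners LAMB1 and LAMC1 had a ratio of 1.31 to 1.37 in untreated WT libraries and of 1.42 to 1.56 in all other 9 libraries. For COL6A1 and COL6A2 the ratio was 2.21 to 2.32 in untreated WT libraries, 2.04 to 2.36 in WT with GLUP, 1.95 to 2.13 in untreated libraries labelled TEAD4KO and 1.84 to 2.03 in those given GLUP. The ratios of COL9A3 to COL9A2, COL5A1 to COL5A2 and ITGB1 to ITGA5 overlapped between treatments within each genotype. In WT they were 16.7 to 23.2, 0.584 to 0.620 and 3.77 to 3.93 untreated. With GLUP they were 16.5 to 17.8, 0.611 to 0.707 and 3.49 to 3.86. The ratio of ITGB1 to ITGA5 was 3.98 to 4.83 in libraries labelled TEAD4KO given GLUP, above every WT library. COL4A5 (3.14 FPKM) and COL4A6 (0.0427 FPKM), which start 340 bases apart in opposite directions on chromosome X, differed in level in every library.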
